A study of Mus musculus with 2 samples.

Results

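The genes described here encode regional brain patterning transcription factors, the nuclear proteins that divide the early neural plate from front to back. They were 9 genes listed by symbol: Six3, Hesx1, Rax, Lhx2 and Otx2 for the front, Pax2, En1 and Gbx2 for the junction of midbrain and hindbrain, and Egr2 for the hindbrain. A probe set, the group of short probes that reads a transcript on the array, was taken as a member where the platform annotation gave it exactly 1 gene symbol and that symbol was on the list. This found 11 probe sets for 8 of the 9 genes, out of 18193 genes on the array, and Pax2 was not analysed here. The study took RNA of entire mouse embryos, 8.5 days post coitum (dpc), and hybridised it to the Affymetrix mouse array called 430 in the titles. The matUPD18 array carried RNA of embryos with both copies of chromosome 18 inherited from the mother, and the patUPD18 array carried RNA of embryos with both inherited from the father. No strain, sex or number of pooled embryos is given for either group in the sources used here. With 1 array per group the variation among embryos is unknown, and no test was made.

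The neural plate acquires regional identity through factors that each mark a stretch of the axis and repress their neighbours. Otx2 marks the forebrain and midbrain and Gbx2 the front of the hindbrain, and the line where they meet places the isthmic organiser, a signalling centre that secretes Fgf8 and Wnt1. Six3, Hesx1, Rax and Lhx2 act in the forebrain and the eye field, Pax2 and En1 in the band around the isthmus, and Egr2 (also called Krox20) in the third and the fifth segments, or rhombomeres, of the hindbrain. At this stage of mouse development the neural folds are closing and most of these domains are in place.

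Signals are MAS5 intensities in arbitrary units, scaled by the submitters to the same mean on both arrays. Signals under the 40th percentile of an array, 84.2 for matUPD18 and 82.5 for patUPD18, lay below the floor used here and were raised to it before a ratio was taken. A gene was called measurable where at least 1 of its signals reached the 60th percentile of its array, 190.1 for matUPD18 and 184.9 for patUPD18, which 10484 genes did. A gene that reached it on 1 array only usually entered the counts below through the array where it was higher. Among the probe sets of a gene the brightest on average stood for it, and a log2 ratio is that of matUPD18 over patUPD18. Where a gene had several measurable probe sets, their log2 ratios differed with a pooled standard deviation (SD) of 0.44 (10206 probe sets of 4003 genes), which is a technical spread and holds no difference between embryos. Impact, the paternally expressed gene of chromosome 18, read 328.4 in matUPD18 and 2466 in patUPD18 by its brightest probe set. A dimmer measurable probe set of Impact read the other way, with 268.2 in matUPD18 and 205.3 in patUPD18. All 11 bacterial and phage hybridisation controls read lower on the matUPD18 array, with a median log2 ratio of -0.50. Of 14 markers of the embryo's main tissues found on the array, 13 were measurable and all 13 lay within 2-fold. Most genes did so: of all measurable genes, 2.7% stood 2-fold or more to the matUPD18 side and 1.78% to the patUPD18 side. In whole embryos, fewer cells of a type and less RNA per cell cannot be told apart.

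Of the 8 genes, 5 were measurable, namely Six3, Hesx1, Otx2, Gbx2 and Egr2. None of the 5 was 2-fold apart in either direction, while 2.7% of all measurable genes stood 2-fold or more to the matUPD18 side and 1.78% to the patUPD18 side. Scaling instead to the hybridisation controls shifts all genes by 0.50 on the log2 scale, and then 3 of the 5 and 12.9% of all measurable genes stood 2-fold or more to the matUPD18 side. All 5 had log2 ratios above 0, against 46.1% of all measurable genes, but that of Six3 was only 0.02 and was below 0 after median centring, quantile or loess scaling. Egr2 alone reached 1.5-fold in matUPD18, as 9.97% of all measurable genes did, and none reached it in patUPD18, as 8.74% did. The median log2 ratio over the 5 was 0.52, against -0.04 over all measurable genes. Gbx2 was measurable only through its matUPD18 signal, so it entered these counts through the array where it was higher. The members also differ in where they lie: Otx2 and Hesx1 are on chromosome 14, En1 and Gbx2 on chromosome 1, Lhx2 on 2, Egr2 on 10, Six3 on 17 and Pax2 on 19. Rax is the 1 member on chromosome 18, the chromosome of the disomy.

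**Figure D1:**
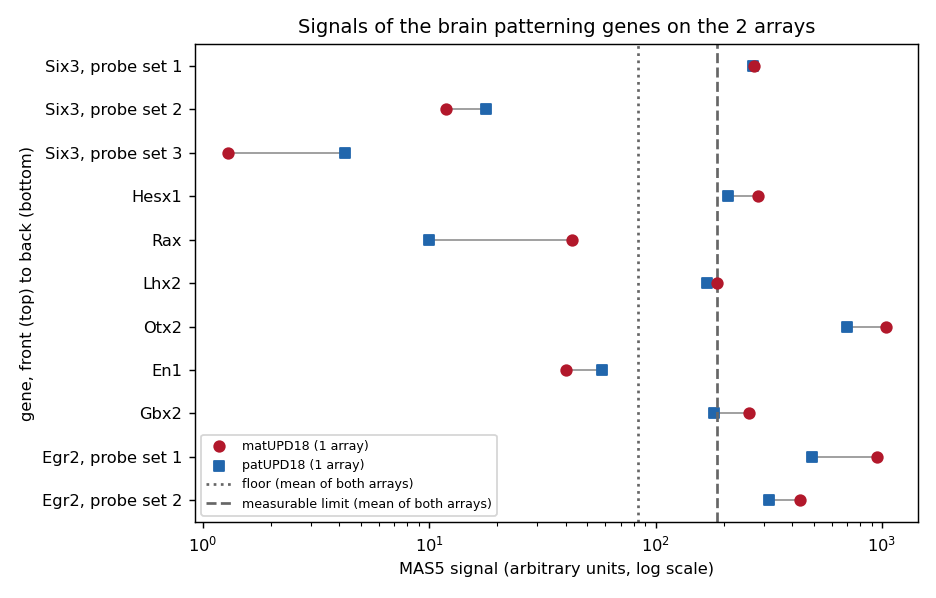
MAS5 signal (log scale, arbitrary units) of the 11 probe sets of the 8 genes on the matUPD18 array (circles) and the patUPD18 array (squares), ordered front to back, with lines at the floor and at the measurable limit, each drawn as the mean of the values of both arrays. Otx2 had 1038 in matUPD18 and 703 in patUPD18 and Egr2 had 951.5 in matUPD18 and 493.0 in patUPD18, while both dim Six3 probe sets, Rax and En1 lie under the floor on both arrays.

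At the front, Six3 read nearly equal on both arrays and Hesx1 leaned to matUPD18. Six3, a homeodomain factor that shapes the anterior forebrain and eye and represses Wnt signalling there, had a signal of 273.2 in matUPD18 and 269.0 in patUPD18 by probe set 1427523_at, a 1.02-fold ratio. Its other probe sets were under the floor on both arrays, with 11.8 in matUPD18 and 17.8 in patUPD18 for 1426638_at and with 1.29 in matUPD18 and 4.25 in patUPD18 for 1426637_a_at. These values give no ratio, so the Six3 reading rests on a single probe set.

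Hesx1, a paired-like homeodomain repressor needed for forebrain and pituitary development, read 284.2 in matUPD18 and 209.9 in patUPD18 by probe set 1420604_at. This was 1.35-fold higher in matUPD18, a log2 ratio of 0.44, equal to the SD between probe sets of a gene. Of the 524 genes of like mean signal, 96 (18.3%) had a ratio at least as high. A lean of this size was thus common among dim genes.

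Lhx2 and Rax, both genes of the eye field, could not be compared. Lhx2, a LIM homeodomain factor required for the optic vesicle to go on to form an optic cup, read 186.5 in matUPD18 and 168.7 in patUPD18 by probe set 1418317_at. Both signals were above the floor and just under the measurable limit, and their log2 ratio was 0.15. Rax, the homeodomain factor on which eye formation depends, read 42.8 in matUPD18 and 10.01 in patUPD18 by probe set 1418558_at. Both Rax signals lay under the floor, so no fold is given for this chromosome 18 gene.

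Otx2, the homeodomain factor without which forebrain and midbrain do not form, read 1038 in matUPD18 and 703 in patUPD18 by probe set 1425926_a_at. It was 1.48-fold higher in matUPD18, a log2 ratio of 0.56. That is 1.28 times the SD between probe sets of a gene, and 55 of 524 genes of like signal (10.5%) read at least as high.

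The promoters of Otx2 and Egr2 are shown because these members had the highest ratios. Promoter windows, from 250 bases before to 50 bases after an annotated transcript start, were taken from RefSeq for 8 of the 9 members (18 windows, mouse build GRCm38.p6). They were searched on both strands for TAATTA, a core site of many homeodomain proteins, for TAATCC, the form preferred by the Otx class, and for the CArG box, the site of serum response factor. TAATTA occurs in 5.29% of all 32851 windows, TAATCC in 7.06% and the CArG box in 1.63%. Among the members, Otx2 held TAATTA in 2 of its 4 windows and TAATCC in 1 of them, and Egr2 held a CArG box in 4 of its 5 windows. No window of Six3, Hesx1, Lhx2, Pax2, En1 or Gbx2 held any of them. In the Otx2 window at chr14:48665060-48665359 on the minus strand, printed 5′ to 3′, the capitals mark TAATTA with its first base at positions -234, -174 and -154 from the start, and at -211 TAATCC read on the other strand.

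Otx2 promoter: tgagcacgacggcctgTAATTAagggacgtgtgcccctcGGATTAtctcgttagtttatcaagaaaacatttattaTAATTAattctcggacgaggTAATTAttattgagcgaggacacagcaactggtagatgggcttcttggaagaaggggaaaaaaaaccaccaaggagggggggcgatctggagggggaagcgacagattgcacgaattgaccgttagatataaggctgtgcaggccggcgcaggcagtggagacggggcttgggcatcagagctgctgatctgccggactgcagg

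In the Egr2 window at chr10:67537619-67537918 on the plus strand, the capitals mark the CArG box, whose first base is at position -72. Of the 4 Egr2 windows with a CArG box, 3 overlap and hold this same match.

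Egr2 promoter: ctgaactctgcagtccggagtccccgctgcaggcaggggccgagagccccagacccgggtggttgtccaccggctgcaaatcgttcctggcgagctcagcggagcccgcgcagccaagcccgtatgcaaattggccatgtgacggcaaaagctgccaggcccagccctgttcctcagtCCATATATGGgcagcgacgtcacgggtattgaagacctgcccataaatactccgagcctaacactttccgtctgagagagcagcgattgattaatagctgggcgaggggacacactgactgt

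Around the midbrain and hindbrain junction, only Gbx2 gave a ratio. Gbx2, the homeodomain factor that sets the front limit of the hindbrain by opposing Otx2, read 259.1 in matUPD18 and 181.0 in patUPD18 by probe set 1420337_at. It was 1.43-fold higher in matUPD18, a log2 ratio of 0.52, and 59 of 524 genes of like signal (11.3%) read at least as high. The log2 ratio of Gbx2 minus that of Otx2 was -0.05. Gbx2 gave a ratio only because its matUPD18 signal passed the measurable limit. En1, the engrailed homeodomain repressor of the midbrain and isthmus, read 40.3 in matUPD18 and 57.9 in patUPD18 by probe set 1418618_at, under the floor on both arrays. No ratio is given for it. Its paralogue En2, named after its values were seen, was measurable at 631.8 in matUPD18 and 524.9 in patUPD18.

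Egr2, a zinc finger factor that makes the third and the fifth rhombomeres and later drives myelination in Schwann cells, was the member furthest from an equal reading. Its brighter probe set, 1427683_at, read 951.5 in matUPD18 and 493.0 in patUPD18, 1.93-fold higher in matUPD18 with a log2 ratio of 0.95. Its other probe set, 1427682_a_at, read 433.0 in matUPD18 and 315.7 in patUPD18, a 1.37-fold ratio in the same direction. The log2 ratios of these probe sets differed by 0.49, 0.79 times the SD of such a difference. Of the 524 genes of like signal, 16 (3.05%) had a ratio as high as that of the brighter probe set, and 340 of all measurable genes (3.24%) did. By the median over its probe sets the Egr2 log2 ratio was 0.70.

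Egr2 is also an immediate early gene, one that cells switch on within minutes of a stimulus, so genes of that class were read beside it. Of 15 measurable immediate early genes other than Egr2, 5 read higher in matUPD18 and 10 higher in patUPD18, with a median log2 ratio of -0.29. Egr1, a zinc finger factor of the same family that lies on chromosome 18, was 1.62-fold higher in matUPD18, with 340.8 in matUPD18 and 209.9 in patUPD18. Ier3 (2.38-fold) and Btg2 (2.2-fold) were more than 2-fold higher in patUPD18, and Fos and Jun were 1.25-fold and 1.47-fold higher there. Ier2 (1.39-fold), Zfp36 (1.34-fold) and Dusp1 (1.24-fold) were higher in matUPD18, and Atf3 read nearly equal. Egr3, of the same family as Egr2, read 168.7 in matUPD18 and 90.8 in patUPD18 but was below the measurable limit. Egr2 stood on the same side as Egr1 and on the other side from the 10 genes higher in patUPD18. The part of such a response in its reading was not tested.

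Set in order from front to back, the 5 measurable members had log2 ratios of 0.02 (Six3), 0.44 (Hesx1), 0.56 (Otx2), 0.52 (Gbx2) and 0.95 (Egr2). Six3 was the lowest and Egr2, by its brighter probe set, the highest. The other Egr2 probe set, at 0.46, lay below Gbx2 and Otx2. Egr2 minus Six3 was 0.93, 1.49 times the SD of a difference between probe sets. Hesx1, Otx2 and Gbx2 lay within 0.13 of one another, 0.20 of that SD, and have no order. Egr2 minus Otx2 was 0.39, 0.62 of that SD. Under the 11 other processing settings plotted Hesx1, Otx2, Gbx2 and Egr2 kept ratios above 0 wherever they were measurable, as the plot of ratios by setting shows. The other floors and measurable limits could not change the Hesx1, Otx2 and Egr2 ratios, because these signals lie above the floors. Leaving out probe sets with names ending in _x_at or _s_at removed none of the members. The median over probe sets could change Egr2 alone, and the scaling to the hybridisation controls moved all 5 toward matUPD18 by 0.50. Only median centring, quantile and loess scaling could lower all these ratios, and under them Otx2 read 0.52, 0.52 and 0.54.

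**Figure D2:**
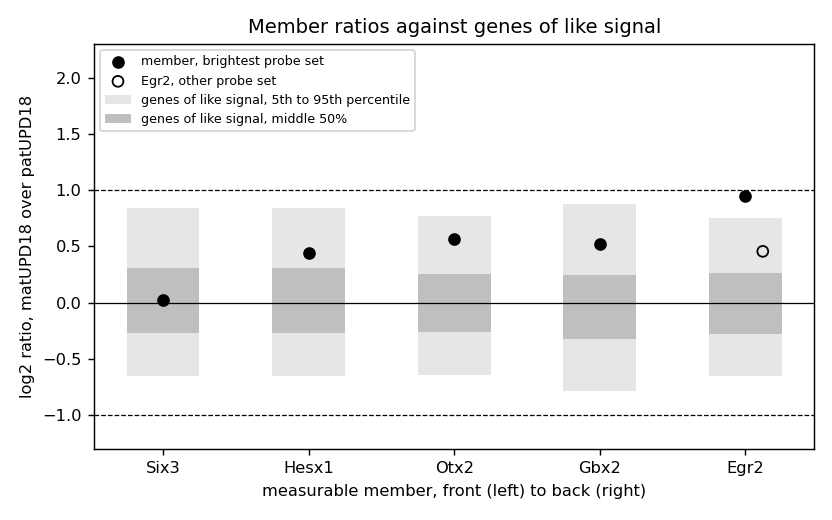
Log2 ratio of matUPD18 over patUPD18 for the 5 measurable members in order from front to back, with grey bars for the middle 50% and the 5th to 95th percentile of the 524 genes of like mean signal in each case. Filled points are brightest probe sets. The open point is the other, dimmer Egr2 probe set, drawn over the bar of the brighter one and so not set against genes of its own signal. Hesx1, Otx2, Gbx2 and both Egr2 probe sets lie above the middle 50% drawn. Only the brighter Egr2 probe set, at 0.95, lies above the 95th percentile, and none reaches the dashed 2-fold lines.

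**Figure D3:**
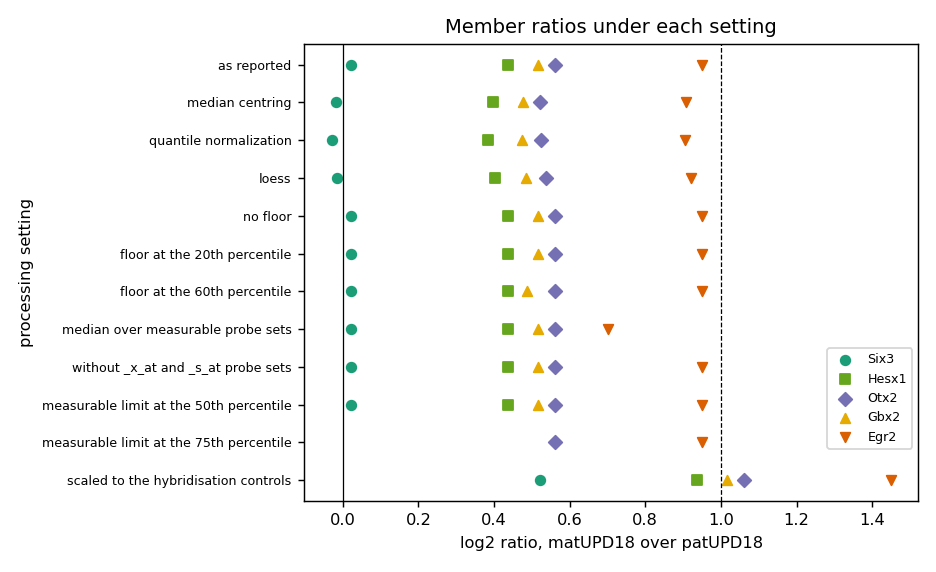
Log2 ratio of matUPD18 over patUPD18 for the 5 measurable members under the reported processing and 11 alternatives, with a dashed line at 2-fold. Hesx1, Otx2, Gbx2 and Egr2 stay right of 0 in each setting where they are measurable, Six3 crosses 0 under 3 scalings, and the scaling to the hybridisation controls moves all 5 to the right by 0.50.

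Other genes of the same regions were split in direction. Together the 3 regional lists held 104 genes other than the members, of which 65 were measurable. Of these, 32 read higher in matUPD18, 2 of them 2-fold or more, and 1 of the rest stood 2-fold or more to the patUPD18 side, and their median log2 ratio was -0.01. The lists thus lay near the median of all measurable genes (-0.04).

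In the forebrain and eye field list, 22 of 36 genes on the array were measurable, with a median log2 ratio of -0.02, 10 of them higher in matUPD18 and 12 higher in patUPD18. Sp8, a zinc finger factor of the anterior neural ridge, was the only one 2-fold apart, with 529.1 in matUPD18 and 255.6 in patUPD18 (2.07-fold). Mitf, of the retinal pigment epithelium, was 1.59-fold and Pax6, of forebrain and eye, 1.43-fold higher in matUPD18. In the other direction stood the secreted Wnt antagonist Sfrp2 (1.79-fold), Dmrta2, of the dorsal forebrain (1.42-fold), and Tbx2, of the dorsal eye (1.27-fold), all higher in patUPD18. Six6, the close relative of Six3, read 242.1 in matUPD18 and 244.2 in patUPD18, as even as Six3 itself. It was named for that kinship after its value was seen.

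In the midbrain and isthmus list, 21 of 31 genes were measurable and all 21 lay within 2-fold, with a median of 0.16. The list had 13 genes higher in matUPD18, led by Spry2, a feedback inhibitor of FGF signalling (1.67-fold), though its other measurable probe set went the other way. Pax3, of the dorsal neural tube (1.52-fold), and Fgf15 (1.43-fold) came next, with 1 of the 2 other measurable probe sets of Pax3 going the other way. Higher in patUPD18 were Efna2, an ephrin of the midbrain (1.82-fold), Pax7 (1.62-fold) and Irx1 (1.45-fold). The organiser's own signals, named after their values were seen, gave little: Wnt1 was 1.06-fold higher in matUPD18, and Fgf8 read 3.78 in matUPD18 and 3.38 in patUPD18, far under the floor. Pax5, a paired box partner of Pax2 named after its values were seen, read 188.3 in matUPD18 and 88.4 in patUPD18, just short of measurable.

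In the hindbrain and rhombomere list, 22 of 24 genes were measurable, with a median of -0.13, 9 of them higher in matUPD18 and 13 higher in patUPD18. With the measurable limit at the 75th percentile that median was 0.15, so the list has no settled direction. Efnb2, an ephrin at rhombomere borders that vessels also express, was 2.78-fold higher in matUPD18, with 1933 in matUPD18 and 694.1 in patUPD18, and its dimmer measurable probe set leaned likewise. Hoxb3 was 1.80-fold and Epha4 1.64-fold higher in matUPD18. Cyp26b1, which degrades retinoic acid, was 2.71-fold higher in patUPD18, with 121.9 in matUPD18 and 330.6 in patUPD18. Efnb1 was 1.54-fold and Sall4 1.495-fold higher in patUPD18, and 1 of the 2 other measurable probe sets of Efnb1 went the other way.

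Known targets of Egr2 in that list were split. Epha4, a receptor that keeps rhombomere cells from mixing, read 678.8 in matUPD18 and 413.9 in patUPD18, and its 3 other measurable probe sets went the same way. Hoxb2 read 1162 in matUPD18 and 1255 in patUPD18, and Hoxa2 read 389.9 in matUPD18 and 412.3 in patUPD18. The Hox pair, named for this role after their values were seen, thus differed little and in the direction opposite to Egr2.

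Cofactors that the members bind or act with, fixed as a list, leaned little. The list holds the Groucho repressors of the Tle family, LIM binding proteins, the Nab proteins that restrain Egr factors, and partners of Pax, Hox and Six3-related proteins. Of 21 measurable genes, 12 read higher in matUPD18 and 9 higher in patUPD18, with a median of 0.12. With each gene read by the median over its measurable probe sets the list median was -0.10, so its direction depends on that choice. Eya1, the phosphatase partner of Six3-related factors, was 2.73-fold higher in matUPD18, with 1202 in matUPD18 and 440.3 in patUPD18, and its dimmer measurable probe set leaned likewise. Tle6 was 1.98-fold and Pbx3 1.52-fold higher in matUPD18, though the other measurable probe set of Pbx3 went the opposite way. The Nab genes were named for their role after their values were seen. Nab1 was 1.46-fold higher in matUPD18, with 1947 in matUPD18 and 1336 in patUPD18. Nab2 read the other way, with 87.9 in matUPD18 and 137.3 in patUPD18, but was below the measurable limit. Lmo1 (1.38-fold), Ssbp4 (1.32-fold) and Ssbp2 (1.25-fold) were higher in patUPD18, with 1 of the 2 other measurable probe sets of Ssbp2 going the other way.

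General neural genes, read by their brightest probe sets, leaned to patUPD18. Of 23 measurable pan-neural genes, 6 read higher in matUPD18 and 17 higher in patUPD18, with a median log2 ratio of -0.36 and summed signals of 36644 in matUPD18 and 43234 in patUPD18. Fabp7, of radial glia, was 3.05-fold and the Notch target Hes5 2.17-fold higher in patUPD18, followed by Sox11 (1.98-fold), for which 4 of 5 other measurable probe sets leaned likewise. Dll1, a Notch ligand, was 1.99-fold higher in matUPD18, and Zic1 (1.29-fold) and Ptn (1.19-fold) came after it. The 1 other measurable probe set of Zic1 and 1 of the 2 of Ptn went the other way. Among the genes counted as higher in patUPD18, Sox21, Nes, Zic5, Msi1 and Notch1 each had 1 other measurable probe set, which went the other way. Pou3f2 and Neurog1 were measurable only through their patUPD18 signals. Sox2, a general marker of neural progenitors named after its values were seen, read 5833 in matUPD18 and 5337 in patUPD18.

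Beside these stand markers of tissues outside the brain, some of which express members too. Otx2 and Hesx1 are also genes of the anterior visceral endoderm, and all 5 measurable genes of that list other than the members read higher in matUPD18, with a median log2 ratio of 0.36 and none 2-fold apart. Its summed signal was 3619 in matUPD18 and 2722 in patUPD18. The other 4 genes of that list on the array were below the measurable limit. Fst, 1 of the 5, had 1 other measurable probe set, which went the other way. Dkk1 read 223.2 in matUPD18 and 174.3 in patUPD18. It was measurable only through its matUPD18 signal, so it entered the count through the array where it was higher. Foxa2 is also in the midbrain and yolk sac lists and Fst in the hindbrain list, so the count is not specific to that tissue. Of the defining genes of the anterior visceral endoderm, Cer1 read 187.7 in matUPD18 and 156.8 in patUPD18, while Lefty1 read 59.5 in matUPD18 and 147.6 in patUPD18. Gsc and Lhx1 were under the floor on both arrays. Of 24 measurable yolk sac and visceral endoderm genes, 22 read higher in matUPD18 and 15 at least 2-fold so, with summed signals of 43085 in matUPD18 and 10222 in patUPD18. The largest terms of the matUPD18 sum were Afp (12717, against 1914 in patUPD18) and Ttr (11979, against 1349). Ttr, Gata6 and Spink1 lie on chromosome 18, the chromosome of the disomy. Several of these yolk sac genes lay under the floor on the patUPD18 array, among them Apoa1 (43.5), Apoa4 (29.7) and Cubn (70.5). These and others at least 2-fold apart, such as Apob (147.6) and Apoe (126.7), were under the patUPD18 measurable limit of 184.9. Most of the 15 thus entered the count through the array where they were higher, while Afp, Ttr and Rbp4 were measurable on both. These values do not show whether anterior visceral endoderm was present in these embryos. The part of that tissue or of yolk sac tissue in the Otx2 and Hesx1 readings was not tested.

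Genes of the tail end and of blood leaned to patUPD18. Of 13 measurable genes of the posterior axis, 10 read higher in patUPD18 and 6 of them at least 2-fold so, with a median log2 ratio of -0.89 and summed signals of 4313 in matUPD18 and 6291 in patUPD18. Of 17 measurable primitive red cell genes, 15 read higher in patUPD18 and 6 at least 2-fold so, with summed signals of 53030 in matUPD18 and 78453 in patUPD18. Some of these genes entered the counts only through the patUPD18 array, where they were higher. Among them were Msgn1 (66.8 in matUPD18), Hes7 (115.1) and Hoxc10 (15.0) of the posterior axis. Gata1 (143.9), Epor (175.3), Rhag (169.1) and Rhd (139.2) of the red cell list were others. In the other direction, Sptb entered the red cell count only through matUPD18. The measurable brain members other than Six3 stood on the opposite side from most genes of both lists. Whether a difference in stage or in the share of each tissue moves with the members was not tested.

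**Figure D4:**
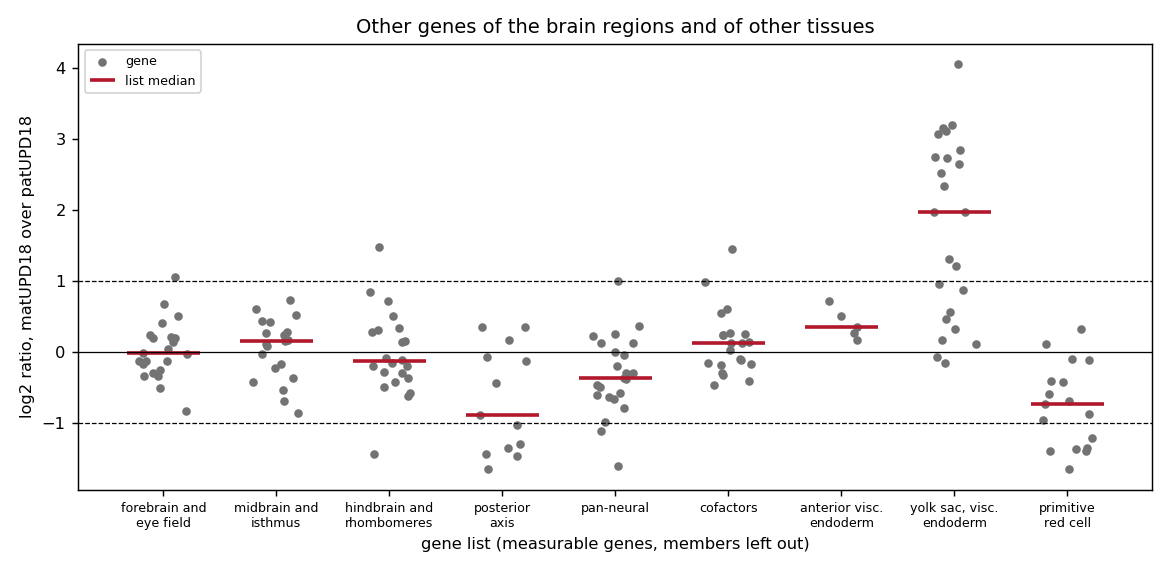
Log2 ratios of matUPD18 over patUPD18 for the measurable genes of 9 lists, members left out, each point a gene (spread sideways for legibility) and each bar a list median. The 3 brain region lists centre near 0 (-0.02, 0.16 and -0.13), the posterior axis list lies lower at -0.89, and the yolk sac list lies higher at 1.97.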

How the data were processed

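RNA of 2 whole-embryo samples was measured on 1 array each. Per the labels' protocols, the RNA was amplified with a RiboAmp kit and labelled with biotin; such amplification favours the 3' ends of transcripts, so probe sets far from that end can read low. The authors deposited MAS5 signal intensities made with MAS5 and GCOS, per the submitters' processing notes, with versions not given in the sources used here. Their 2% trimmed mean was 500.003 in matUPD18 and 500.004 in patUPD18, so a change common to most transcripts is scaled away. Detection calls were not used here.

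Of 45101 probe sets, 34958 had exactly 1 gene symbol. Symbols were updated through the Entrez identifier with the RefSeq gene table (GRCm38.p6), which matched 34741 of the 34945 that are not array controls. The sources used here name no genome build, and the RefSeq table supplied names and chromosomes only. Genes of like signal are those in the same one of 20 equal groups of measurable genes by mean signal. Hybridisation controls and other array controls represented no gene.

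The members and the 12 gene lists (277 genes other than the members, 21 of them in more than 1 list) were chosen with earlier results of these data known. Genes were named by rule: all members with all their probe sets, the listed genes of brain regions, cofactors and pan-neural tissue that were 2-fold apart, and otherwise up to 3 in each direction, with further genes marked as chosen after their values were seen. Genes named from the other lists, and the motifs, were also chosen after values were seen. With 1 array per group no test, p-value or error was computed, and the number of arrays limits the precision of each value. The procedure was tested on simulated data. That simulation used less noise than the SD between probe sets of a gene and planted changes larger than any member ratio. It set no floor or measurable limit, so it does not bear on ratios of the size seen here. Alternatives were other scalings, floors, probe set rules, measurable limits and fold thresholds. A scaling to the hybridisation controls was added after seeing the data. Python 3.11.15, numpy 2.4.6, pandas 2.3.3, statsmodels 0.14.6 (loess) and matplotlib 3.10.9 were used.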

Additional observations from a re-analysis of the deposited data

How the results depend on the processing

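No paired analysis was possible because each group had 1 array. Values moved were judged against the SD between probe sets of a gene, 0.44, divided for list medians by the square root of the number of genes. Of the single-gene ratios under alternatives, 47 moved by less than that. Many of these could not move, since a floor below a gene's signals or another measurable limit leaves its ratio as it was. Leaving out probe sets with names ending in _x_at or _s_at could not move them either. The other 5 moved by more, all 5 under the scaling to the hybridisation controls, which was chosen after seeing the data. That scaling lifts the median of all measurable genes by 0.50, to 0.46. It gave log2 ratios of 0.52 for Six3, 0.94 for Hesx1, 1.06 for Otx2, 1.02 for Gbx2 and 1.45 for Egr2, so that 3 members were 2-fold apart by that common shift, as 12.9% of all measurable genes then stood 2-fold or more to the matUPD18 side, with a member median of 1.02 and medians of 0.48 (forebrain list), 0.66 (midbrain list), 0.37 (hindbrain list) and 0.62 (cofactor list). Relative to the median of all genes the members stood where they did before, with Otx2 between 0.57 and 0.61 and Egr2 between 0.73 and 0.99 over all settings. Six3 read -0.02 after median centring, -0.03 after quantile and -0.01 after loess scaling. At a threshold of 1.5-fold, 1 member passed, and at 3-fold none did. With the measurable limit at the 75th percentile, 2 members remained by construction, Otx2 and Egr2, both higher in matUPD18 with a median of 0.76, and the hindbrain list median was 0.15 over fewer genes. With the median over measurable probe sets, the cofactor list median was -0.10, and the cause was not tested. The other 68 list and count values changed little. Dim signals limit what can be said of Rax, En1 and Lhx2.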

Other observations

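Genes of the intermediate mesoderm and of the ear placode, tissues that also use Pax2 or Gbx2, were read for completeness. Of 16 genes of that list on the array, 7 were measurable, with 4 higher in matUPD18, 3 higher in patUPD18 and a median log2 ratio of 0.10. Eya1, a gene of the otic placode and kidney as well as a partner of Six3-related factors, was the 1 gene 2-fold apart, at 2.73-fold higher in matUPD18. Chosen after their values were seen, Emx2 was 1.18-fold higher in matUPD18, and Six4 was 1.33-fold and Sox10, of neural crest and otic vesicle, 1.21-fold higher in patUPD18.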
